A study of Mus musculus with 4 samples.

Results

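Genes of fat storage were followed in mouse liver: Pparg, which encodes the nuclear receptor PPAR gamma, and the lipid droplet genes Plin2, Plin4, Plin5, Cideb, Cidec, Fitm1, Fitm2, Pnpla2 and G0s2. They were represented by every probe set whose platform annotation gave exactly 1 gene symbol equal to the name of a gene in this list. These were 12 of the 45101 probe sets on the array, and all 10 genes, of 18194 with such a probe set, had at least 1. Expression was measured on 4 single-colour Affymetrix arrays, each hybridised with liver RNA pooled in equal amounts over the mice of a group. The groups were the high-fat diet with clodronate liposomes (pool of 10 mice), the high-fat diet with phosphate-buffered saline (PBS; 10 mice), the low-fat diet with clodronate liposomes (8 mice) and the low-fat diet with PBS (8 mice). All mice were male C57BL/6J, between 8 and 12 weeks old when the diets began, and ate for 20 weeks a palm-oil diet with 45% (high-fat) or 10% (low-fat) of its energy as fat. Liposomes or PBS were injected into the peritoneal cavity in the last week. Clodronate liposomes kill the phagocytes that take them up. The saline control holds no liposomes, so the liposome itself, the drug and the loss of macrophages cannot be told apart. Each group was 1 array, so the spread between mice was not measured, and the number of arrays limits the precision.

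Lipid droplets store triglyceride inside cells under a coat of proteins. In hepatocytes the droplet grows out of the endoplasmic reticulum with the help of FIT proteins, is covered by perilipins, enlarges through CIDE proteins, and is emptied by adipose triglyceride lipase, whose inhibitor is the G0S2 protein. PPAR gamma, a receptor for fatty acid derived ligands that drives fat cell formation, is low in lean liver and is known to be raised in steatotic mouse liver, where several droplet genes are among its targets.

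Values are given on the log2 scale as deposited, where a difference of 1 is a change of 2-fold. Below 4 a probe set was treated as too dim to measure. Plin4, Cidec and the second Pnpla2 probe set (1428591_at) stayed below 4 on all 4 arrays. The other 9 probe sets, of 8 genes, were at 4 or more on all 4 arrays, and they are compared here with the 16298 probe sets of the whole table that reached 4 on at least 1 array. Levels of different probe sets cannot be ranked against each other, so each gene is compared only with itself.

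Across the 4 arrays the median over all probe sets lay between 2.73 and 2.79, and Pearson's r between arrays over probe sets, which are not independent, lay between 0.994 and 0.996. The 12 Kupffer cell markers, genes of the resident liver macrophage, had a summed level of 7.61 and 6.51 (log2 of the sum of linear values) in the clodronate pools on the high-fat and low-fat diet, against 12.48 and 12.61 in the PBS pools on the same diets. Of these markers 6, Clec4f, Vsig4, C1qa, C1qc, Csf1r and Cd163, fell after clodronate in a limma model over both diets. When the prior variance followed the mean level, 11 did so. Over all 16298 probe sets 11, or 0.0675%, fell in the first model and 72 with the second prior. The summed level of 11 hepatocyte markers lay between 16.82 and 16.88 on all 4 arrays. In whole liver, fewer cells of a type and less RNA per cell cannot be told apart.

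**Figure D1:**
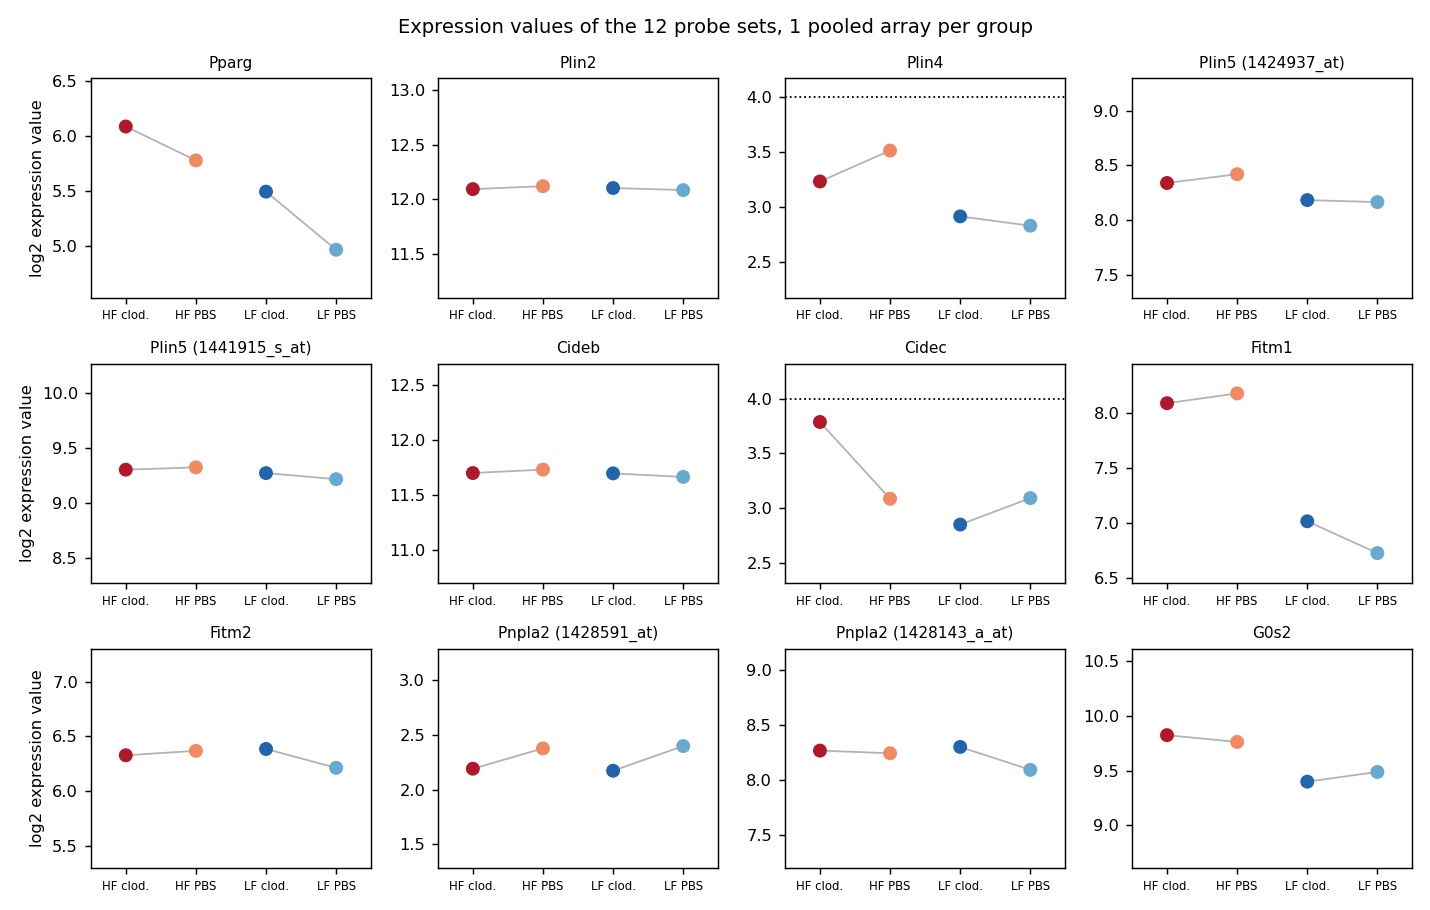
Expression value (log2) of each of the 12 probe sets on the 4 pooled arrays. HF is the high-fat and LF the low-fat diet, clod. is clodronate, each point is 1 array, all panels span 2 log2 units, and the dotted line marks the value of 4. Fitm1 and Pparg are higher on both high-fat arrays, Plin2 and Cideb lie nearly level, and Plin4, Cidec and 1 Pnpla2 probe set lie below 4.

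Pparg, the regulator, had higher values in both high-fat pools than in both low-fat pools, and was also higher after clodronate on either diet. By its probe set (1420715_a_at) it was at 6.09 with clodronate and 5.78 with PBS on the high-fat diet, and at 5.49 with clodronate and 4.96 with PBS on the low-fat diet. The high-fat arrays thus lay above the low-fat arrays without overlap, and on each diet the clodronate pool lay above its PBS pool. The share of all probe sets whose arrays part by diet in this way was not counted, so the separation alone says little. The order of levels was high-fat with clodronate, high-fat with PBS, low-fat with clodronate and low-fat with PBS. The excess of the high-fat over the low-fat pool of Pparg was 1.51-fold with clodronate and 1.76-fold with PBS. It was 1.24-fold higher with clodronate than with PBS on the high-fat diet and 1.44-fold higher on the low-fat diet.

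The effect of diet on Pparg, averaged over both injections, was 0.70 ± 0.16 (SD of the differences with either injection, n = 2), with a 95% interval of 0.35 to 1.06. The limma model with an additive effect of diet and injection, which 4 unreplicated arrays still allow, gave an adjusted p = 0.472 after Benjamini-Hochberg adjustment over 16298 probe sets, and an unadjusted p = 0.00581. The mean effect of clodronate was 0.42 ± 0.16 (SD, n = 2), with a 95% interval of 0.07 to 0.77 (limma, Benjamini-Hochberg adjusted p = 1). Neither effect passed the threshold of 0.05. The summed Kupffer cell markers were lower in the same clodronate pools, and their part in the Pparg difference was not tested. The clodronate difference on the high-fat diet was smaller by 0.22 than that on the low-fat diet, and this was not tested because a model with that term leaves no residual.

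The largest diet difference among these genes was that of Fitm1. FIT proteins sit in the endoplasmic reticulum membrane, bind triglyceride and promote the budding of droplets. Fitm1 is best known from skeletal muscle, while Fitm2 is more widely expressed. Because this pair parted, the 300-base promoter windows of both are shown with that of Plin2, the droplet coat gene with the smallest range over the arrays. The windows run from 250 bases before to 50 bases after the RefSeq start (build GRCm38.p6), on the gene's strand. Capitals mark the stretch resembling a direct repeat, AGGTCA written 2 times with 1 free base between the copies, the element bound by PPAR receptors with their partner RXR.
Fitm1 (chr14:55575424-55575723, plus strand): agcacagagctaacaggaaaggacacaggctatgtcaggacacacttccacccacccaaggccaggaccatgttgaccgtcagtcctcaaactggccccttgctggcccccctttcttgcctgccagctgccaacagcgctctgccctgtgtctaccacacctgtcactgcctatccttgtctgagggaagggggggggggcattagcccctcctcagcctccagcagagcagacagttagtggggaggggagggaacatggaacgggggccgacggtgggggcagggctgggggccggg
Fitm2 (chr2:163472580-163472879, minus strand): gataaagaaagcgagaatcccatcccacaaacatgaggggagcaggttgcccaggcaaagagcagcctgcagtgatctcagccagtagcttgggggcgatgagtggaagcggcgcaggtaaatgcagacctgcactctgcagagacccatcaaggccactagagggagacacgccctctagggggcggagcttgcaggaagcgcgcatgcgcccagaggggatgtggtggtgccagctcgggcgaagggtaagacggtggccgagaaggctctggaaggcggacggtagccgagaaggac
Plin2 (chr4:86670010-86670309, minus strand): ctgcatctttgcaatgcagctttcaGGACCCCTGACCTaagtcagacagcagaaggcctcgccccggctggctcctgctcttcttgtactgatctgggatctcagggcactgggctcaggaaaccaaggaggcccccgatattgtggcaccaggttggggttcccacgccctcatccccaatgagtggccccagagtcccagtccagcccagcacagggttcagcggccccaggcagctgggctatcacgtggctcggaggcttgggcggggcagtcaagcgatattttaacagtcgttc

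The direct repeat was searched on both strands, allowing up to 2 mismatches outside the free base. All 10 genes had a promoter window in the RefSeq table, 14 windows in all, since Pparg, Plin5 and Cidec have several listed starts. An exact match was found in 0 of the 14 windows and in 0.0396% of all 32851 windows in the table. With up to 2 mismatches, 1 of the 14 windows held a match, at bases 26 to 38 of the Plin2 window on the opposite strand, as did 3.86% of all windows. The windows of Fitm1 and Pparg, the genes with the largest diet differences, held no such letters, and this says nothing about the receptor elsewhere at these genes. A match in letters is not a binding site shown in this liver.

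Fitm1 (1451488_at) was at 8.09 with clodronate and 8.18 with PBS on the high-fat diet, and at 7.02 with clodronate and 6.73 with PBS on the low-fat diet. Both high-fat arrays were above both low-fat arrays by more than 1 log2 unit, while the injections differed by less than that within a diet. Between the diets, Fitm1 was 2.11-fold higher in the high-fat pool with clodronate and 2.74-fold higher in that with PBS. Between clodronate and PBS it differed by -0.09 on the high-fat diet and by 0.29 on the low-fat diet.

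The mean diet difference of Fitm1 was 1.27 ± 0.27 (SD, n = 2), with a 95% interval of 0.85 to 1.69. It did not pass in the main model (limma, Benjamini-Hochberg adjusted p = 0.415), in which 0 of the 16298 probe sets, 0.0%, were called for diet and 1504, or 9.23%, had an unadjusted p under 0.05. With a prior variance that depends on the mean level, Fitm1 rose on the high-fat diet (limma, Benjamini-Hochberg adjusted p = 0.0445), as did 24 probe sets in all, or 0.147%. With that prior and 1 probe set per gene, a setting chosen after seeing the data, its adjusted p was 0.00244 (limma). In that setting 75 of 8650 genes, 0.867%, rose. The mean-dependent prior was not made the main setting because an earlier simulation found that it called too many unchanged genes. The call of Fitm1 therefore depends on how the variance is modelled, while its direction was the same with both injections. Only 7 of the 16298 probe sets, Fitm1 included, were at least as far above the low-fat diet in both injection groups, against 52 for Pparg and 261 for G0s2.

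Fitm2 (1454935_at) was at 6.33 with clodronate and 6.37 with PBS on the high-fat diet, and at 6.38 with clodronate and 6.21 with PBS on the low-fat diet. The 4 values spanned 0.17, and the arrays of the diets overlapped. Its mean diet difference was 0.05, with a 95% interval of -0.30 to 0.40 (limma, Benjamini-Hochberg adjusted p = 0.931). The diet interval of Fitm1 lies wholly above that of Fitm2, although the difference between the genes was not itself tested.

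Since Fitm1 is a muscle gene, the muscle markers are given beside it. Of 12 skeletal and smooth muscle markers, 10 were below 4 on all arrays, including the skeletal muscle genes Acta1, Ckm and Mylpf, which reached at most 2.58, 2.31 and 2.85. The exceptions were Acta2, the actin of smooth muscle and stellate cells, and Tpm2, a tropomyosin. Tpm2 was at 8.01 and 7.91 in the high-fat clodronate and PBS pools, against 5.85 and 5.93 in the low-fat clodronate and PBS pools. A second Tpm2 probe set differed by 2.13 with clodronate and 2.29 with PBS, and the third was near 4. The summed level of the 12 muscle markers was 8.83 and 8.75 in the high-fat clodronate and PBS pools, against 7.94 and 7.80 in the low-fat ones. Most of that difference in the sum comes from Tpm2, since Acta2 differed by 0.12 with clodronate and 0.41 with PBS. Tpm2 did not pass for diet in the main limma model (Benjamini-Hochberg adjusted p = 0.415), and its adjusted p was 0.0150 with the mean-dependent prior. The part of muscle or smooth muscle cells in the Fitm1 difference was not tested.

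**Figure D2:**
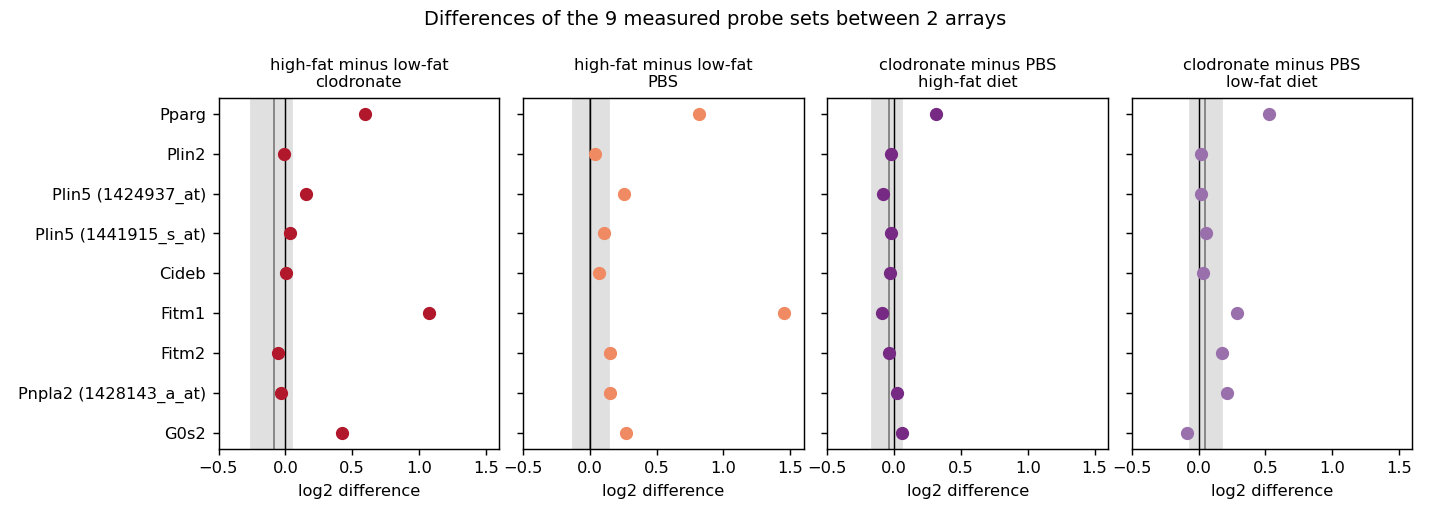
Log2 difference of each of the 9 measured probe sets in the 4 pairs of pooled arrays. The grey band spans the middle 50% of all 16298 probe sets, the grey line is their median and the black line is 0. Fitm1 and Pparg lie far to the right of the band in both diet pairs, and Pparg also in both clodronate pairs.

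The measured perilipin coat genes lay nearly level over the 4 arrays. Plin2, the main coat protein of hepatocyte droplets, was at 12.09 with clodronate and 12.12 with PBS on the high-fat diet, and at 12.10 with clodronate and 12.09 with PBS on the low-fat diet. The 4 values overlapped between the diets and spanned 0.04, less than any other probe set of these genes. The mean diet difference was 0.01, with a 95% interval of -0.30 to 0.33 (limma, Benjamini-Hochberg adjusted p = 0.985). The interval for clodronate was -0.32 to 0.31 (limma, Benjamini-Hochberg adjusted p = 1), so these arrays leave room for a change of either sign of that size.

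Plin5, a coat protein of tissues that burn fat, which links droplets to mitochondria, had 2 measured probe sets. The first (1424937_at) was at 8.34 with clodronate and 8.42 with PBS on the high-fat diet, and at 8.18 with clodronate and 8.17 with PBS on the low-fat diet. The second (1441915_s_at) was at 9.31 with clodronate and 9.33 with PBS on the high-fat diet, and at 9.27 with clodronate and 9.22 with PBS on the low-fat diet. Both probe sets put the high-fat arrays above the low-fat arrays, with mean diet differences of 0.21 and 0.07. Their 95% intervals, -0.12 to 0.53 and -0.25 to 0.39, include 0 (limma, Benjamini-Hochberg adjusted p = 0.628 and 0.874).

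Plin4, a coat protein abundant in fat cells and encoded beside Plin5 in the genome, was too dim to measure. Its deposited values were 3.23 with clodronate and 3.52 with PBS on the high-fat diet, and 2.92 with clodronate and 2.83 with PBS on the low-fat diet. These lie below 4, and no difference was taken from them.

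The CIDE genes gave either flat or unmeasurable signal. Cideb, the CIDE protein of hepatocytes, which also serves the lipidation of secreted lipoproteins, was at 11.70 with clodronate and 11.73 with PBS on the high-fat diet, and at 11.70 with clodronate and 11.66 with PBS on the low-fat diet. Its 4 values spanned 0.07. The high-fat arrays of Cideb also lay above its low-fat arrays without overlap, but by as little as 0.003. The 95% interval of its mean diet difference of 0.04 was -0.28 to 0.35 (limma, Benjamini-Hochberg adjusted p = 0.948). The suffix of its probe set (1418976_s_at) marks probes that can match more than a single transcript.

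Cidec, known as Fsp27 and a PPAR gamma target of fatty liver that fuses droplets, was below 4 on every array. Its deposited values were 3.79 with clodronate and 3.09 with PBS on the high-fat diet, and 2.85 with clodronate and 3.09 with PBS on the low-fat diet. The high-fat clodronate pool had the highest value and came closest to 4. With no value at 4, neither a diet nor a clodronate difference of Cidec could be measured.

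Among the genes of droplet breakdown, the lipase was level between the diets and its inhibitor had slightly higher values in the high-fat pools. Pnpla2 encodes adipose triglyceride lipase, which takes the first fatty acid from triglyceride. By its measured probe set (1428143_a_at) it was at 8.27 with clodronate and 8.24 with PBS on the high-fat diet, and at 8.30 with clodronate and 8.09 with PBS on the low-fat diet. The arrays of the diets overlapped, and the mean diet difference was 0.06, with a 95% interval of -0.28 to 0.40 (limma, Benjamini-Hochberg adjusted p = 0.910). The other Pnpla2 probe set (1428591_at) was at most at 2.40.

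G0s2, which binds and inhibits that lipase, was at 9.82 with clodronate and 9.76 with PBS on the high-fat diet, and at 9.40 with clodronate and 9.49 with PBS on the low-fat diet. The high-fat arrays lay above the low-fat arrays without overlap. The high-fat over low-fat ratio of G0s2 was 1.34-fold with clodronate and 1.21-fold with PBS. The mean diet difference was 0.35 ± 0.11 (SD, n = 2), with a 95% interval of 0.02 to 0.68, and it did not pass (limma, Benjamini-Hochberg adjusted p = 0.535). Its clodronate difference was 0.06 on the high-fat diet and -0.09 on the low-fat diet.

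Counted together, 2 of the 9 measured probe sets, Fitm1 and Pparg, were 1.5-fold or more higher on the high-fat diet with each injection, and 0 were 1.5-fold or more lower. With clodronate 1.66% of all 16298 probe sets were that much higher and 5.71% that much lower. With PBS 2.32% were that much higher and 1.53% that much lower. Fitm1 was 2-fold or more higher with both injections, as were 0.38% of all probe sets with clodronate and 0.362% with PBS. The median difference of the 9 probe sets was 0.03 with clodronate, against a median of -0.09 over all probe sets, and 0.15 with PBS, against 0.00 over all. With PBS all 9 were above 0, and with clodronate 6 were. Centring the arrays or quantile normalization left 9 above 0 with clodronate as well, because Plin2, Fitm2 and Pnpla2 turned sign from differences of 0.06 or less in size.

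After clodronate 0 of the 9 probe sets were 1.5-fold or more higher or lower on either diet. On the high-fat diet 0.718% of all probe sets were that much higher and 2.95% that much lower, and on the low-fat diet 2.44% and 1.38%. The median of the 9 was -0.03 on the high-fat diet and 0.06 on the low-fat diet, against -0.04 and 0.05 over all probe sets. Directions of Plin2, Plin5, Cideb and Fitm2 are not given for clodronate, since at least 1 probe set of each turned sign under another scaling on at least 1 diet.

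In limma 0 of the 9 probe sets were called for diet and 0 for clodronate. At an unadjusted p under 0.05 there were 3 for diet, Fitm1, Pparg and G0s2, and 1 for clodronate, Pparg. Over all probe sets 9.23% had an unadjusted p under 0.05 for diet and 4.6% for clodronate, and 0.0675% were called for clodronate. With the mean-dependent prior 0 of the 9 were called for clodronate, and 0.454% of all probe sets.

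**Figure D3:**
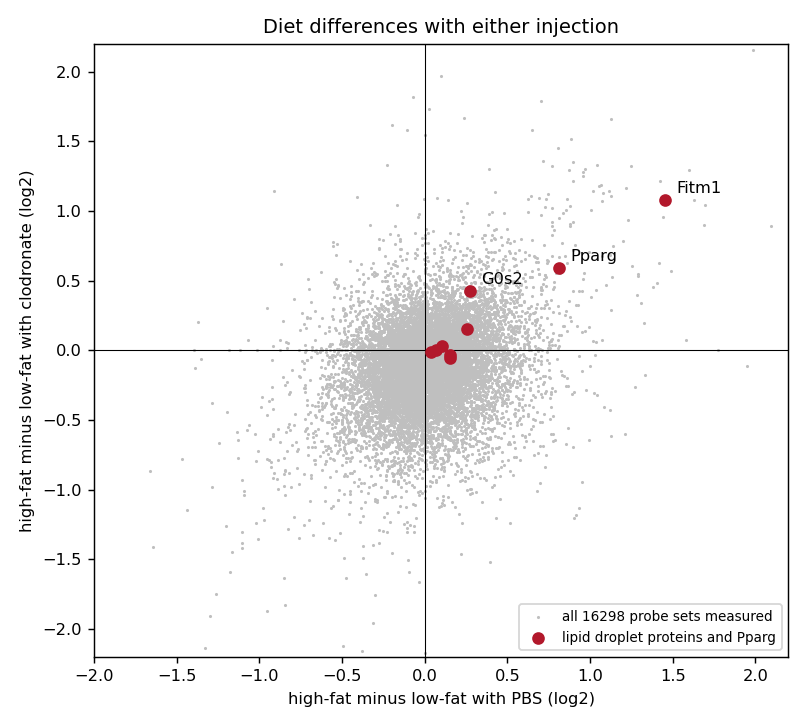
Difference between the high-fat and the low-fat diet (log2) with PBS on the horizontal and with clodronate on the vertical axis, for all 16298 probe sets (grey, 16 of them outside the axes) and the 9 measured probe sets described here (red). The axes share no array, Fitm1 and Pparg stand at the upper right, G0s2 is higher on both axes, and the rest lie near the centre of the cloud.

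Other genes of fat storage were read from lists, each gene by its brightest probe set. Unless said otherwise, differences of these genes are the high-fat minus the low-fat pool, both with clodronate or both with PBS. Of 14 measured genes in the list of other lipid droplet proteins, 0 were 1.5-fold or more higher or lower in any of the 4 pairs. Over all 16298 probe sets between 0.718% and 5.71% passed that mark, depending on the pair and direction. The diet medians of the list were 0.00 with clodronate and 0.02 with PBS. Over the 4 pairs the largest differences were those of Faf2, Lpcat1 and Acsl3. Faf2, a droplet-bound ubiquitin adaptor, differed by -0.51 with clodronate and 0.20 with PBS. Lpcat1, an enzyme of phospholipid synthesis, differed by -0.38 with PBS, and a second probe set by 0.27, so that it has no settled direction. Acsl3, an acyl-CoA synthetase, had its largest difference between clodronate and PBS on the low-fat diet, at -0.32, where a second probe set differed by -0.08. Cidea, Hilpda, Methig1, Lpcat2 and Tmem159 stayed below 4, and Plin1 was not analysed here.

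In the lipolysis list of 11 measured genes, 2 were 1.5-fold or more lower on the high-fat diet with clodronate and 1 with PBS, and 0 were higher. Over all probe sets 5.71% were that much lower with clodronate and 1.53% with PBS, and 1.66% and 2.32% that much higher. Pnpla3, a lipase-like droplet protein induced by feeding, was below 4 in both high-fat pools, at 3.29 with clodronate and 3.30 with PBS, against 4.64 and 5.13 in the low-fat pools. It was at least 2.19-fold lower in the high-fat pool with PBS. Abhd5, the activator of the Pnpla2 lipase, was at 7.11 with clodronate and 7.52 with PBS on the high-fat diet, and at 7.87 with clodronate and 7.82 with PBS on the low-fat diet. It was 1.69-fold lower in the high-fat pool among the clodronate pools, where a second probe set differed by -0.33, and it differed by -0.30 among the PBS pools. Ces1g, a carboxylesterase, was higher by 0.48 with clodronate and 0.58 with PBS. The median diet difference of the list was -0.08 with clodronate and 0.04 with PBS, and 0 members were called in limma.

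Among 12 measured PPAR gamma targets and adipogenic genes, Cd36 was 1.5-fold or more higher on the high-fat diet with both injections. Lpl was 1.5-fold or more lower with both injections by its brightest probe set, but not by its second with clodronate. Over all probe sets 1.66% were that much higher and 5.71% that much lower with clodronate, and 2.32% and 1.53% with PBS. Cd36, a fatty acid transporter, was at 10.07 with clodronate and 9.99 with PBS on the high-fat diet, and at 9.04 with clodronate and 9.26 with PBS on the low-fat diet. The other measured Cd36 probe sets were higher by 1.01 and 1.04 with clodronate and by 0.85 and at least 1.70 with PBS. Cd36 did not pass for diet in the main model (limma, Benjamini-Hochberg adjusted p = 0.472), and its adjusted p was 0.0498 with the mean-dependent prior. Klf4, at most at 4.47, was below 4 in the high-fat clodronate pool (3.76) and in the low-fat PBS pool (3.80). It was lower by at least 0.47 with clodronate and higher by at least 0.04 with PBS. Mogat1, an enzyme of triglyceride synthesis induced by PPAR gamma, Cidea, Adipoq, Aqp7 and Slc27a1 were below 4 on all arrays. The list median was 0.09 with each injection.

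Lpl, lipoprotein lipase, which macrophages also express, was at 4.94 with clodronate and 7.11 with PBS on the high-fat diet, and at 6.57 with clodronate and 7.96 with PBS on the low-fat diet. By its brightest probe set it was the single gene of the list that differed by 1.5-fold or more after clodronate. Over all probe sets 2.95% were that much lower after clodronate on the high-fat diet and 1.38% on the low-fat diet. Lpl was 4.52-fold lower on the high-fat diet, where Pparg was 1.24-fold higher. A second Lpl probe set, below 4 in the high-fat clodronate pool, differed after clodronate by -0.998 on the high-fat diet and -1.51 on the low-fat diet. The diet differences of that probe set were -0.31 with clodronate and -0.82 with PBS. By the brightest probe set, Lpl did not pass for clodronate in the main model (limma, Benjamini-Hochberg adjusted p = 0.293), and its adjusted p was 0.0435 with the mean-dependent prior. The summed Kupffer cell markers were lower in the same pools, and their part in the Lpl difference was not tested.

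Of 14 measured PPAR gamma partners and coregulators, Ppargc1b was 1.5-fold or more higher and Ppargc1a that much lower on the high-fat diet with both injections. Over all probe sets 1.66% were that much higher and 5.71% that much lower with clodronate, and 2.32% and 1.53% with PBS. Ppargc1b, a coactivator of lipid and mitochondrial genes, was at 6.60 with clodronate and 6.18 with PBS on the high-fat diet, and at 5.51 with clodronate and 5.49 with PBS on the low-fat diet, 2.13-fold higher in the high-fat pool with clodronate. Ppargc1a, its relative and a coactivator of fasting and mitochondrial genes, differed by -0.62 with clodronate and -0.92 with PBS. Its 4 other measured probe sets differed by -0.57 to -0.07 with clodronate. With PBS they differed by -1.35 to -0.17, leaving out a probe set that was below 4 in both PBS pools. That probe set was at 3.66 and 3.62 in the high-fat and low-fat PBS pools, so no PBS difference was measured. Its clodronate difference of -0.36 is a bound, since it was also below 4 in the high-fat clodronate pool. Ncoa3, another coactivator, differed by -0.58 and -0.46. Ppara and Rxra, named after their values were seen, differed by 0.33 and -0.01 with clodronate and by 0.31 and 0.13 with PBS. A second Rxra probe set differed by -0.20 with clodronate and 0.86 with PBS. None of the 14 was called in limma, with or without the mean-dependent prior.

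Of 10 measured genes of triglyceride assembly, 1 was 1.5-fold or more lower on the high-fat diet with clodronate and 0 passed that mark in the other pairs. Over all probe sets 5.71% were that much lower in that pair. In the other pairs 0.718% to 2.95% passed that mark in a given direction. Tm6sf2, a protein of lipoprotein lipidation, differed by -0.82 with clodronate and -0.12 with PBS. Dgat1, which makes triglyceride, differed by -0.16 with clodronate and 0.53 with PBS. Lpin1, a phosphatidate phosphatase, differed between clodronate and PBS by 0.17 on the high-fat diet and 0.44 on the low-fat diet, and a second probe set by 0.23 and 0.41. Its diet differences were -0.13 with clodronate and 0.13 with PBS. The diet medians were -0.04 with clodronate and 0.06 with PBS.

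**Figure D4:**
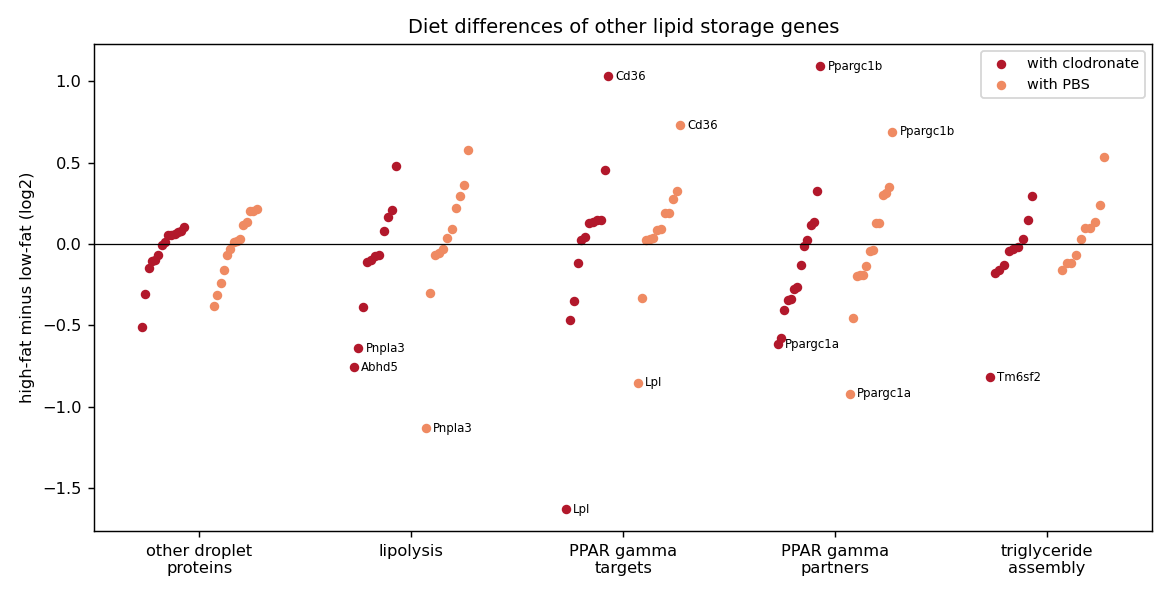
Difference between the high-fat and the low-fat diet (log2) of each measured gene in 5 lists of fat storage genes, with clodronate (dark red) and with PBS (orange). Each point is 1 gene by its brightest probe set, values below 4 are taken as 4, and genes differing 1.5-fold or more are named. Most genes lie near 0, with Cd36 and Ppargc1b above and Lpl, Pnpla3 and Ppargc1a below in both colours.

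Pparg, Plin4, Cidec and G0s2 are strongly expressed by fat cells, so fat cell markers are given beside them. Adipoq, Lep, Retn and Adig, markers of fat cells, were at most at 1.49, 1.73, 2.25 and 2.23 on any array. Cidea, also below 4, was at 3.90 and 3.89 in the high-fat clodronate and PBS pools, against 2.28 and 2.21 in the low-fat ones. Of 10 adipocyte markers 3 were measured, Fabp4, Lipe and Adipor2. Their diet differences were 0.14, 0.08 and -0.31 with clodronate and 0.09, 0.36 and -0.10 with PBS. Lipe was at 3.73 in the low-fat PBS pool, below 4, so its 0.36 is a lower bound. The summed level of 8 adipocyte markers was 11.08 and 11.18 in the high-fat clodronate and PBS pools, against 11.34 and 11.25 in the low-fat ones. Adipor2, at 10.87 and 10.97 in the high-fat clodronate and PBS pools and at 11.18 and 11.08 in the low-fat ones, makes up most of that sum and is also expressed by hepatocytes. The part of fat cells in the Pparg difference was not tested.

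The diet medians of 11 hepatocyte, 9 sinusoidal endothelial and 7 stellate cell markers were -0.01, -0.12 and -0.09 with clodronate and -0.01, -0.05 and -0.04 with PBS. Among the hepatocyte markers G6pc, the last enzyme of glucose release, differed by -0.93 with clodronate and -0.89 with PBS. It did not pass for diet in the main limma model (Benjamini-Hochberg adjusted p = 0.415), and its adjusted p was 0.0167 with the mean-dependent prior. For Kupffer cell markers the diet median was 0.00 with clodronate and -0.17 with PBS. Most of these markers were below 4 in both clodronate pools, which sets their difference, and so the median, to 0. With clodronate 3 were above 0, Cd5l by at least 1.82, C1qb by 1.97 and Csf1r by 0.25, and 0 were below. Of the 12, 2 were 1.5-fold or more higher with clodronate and 3 were that much lower with PBS. Over all probe sets the shares were 1.66% and 1.53%. The part of these cells in the diet differences of Pparg and Fitm1 was not tested.

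The genes whose values ran most like those of Fitm1 and Pparg were found among 7945 genes at 4 or more on all arrays, by the Euclidean distance between values centred on their own mean over the 4 arrays. For Fitm1 these were Dbp, Vnn1 and Fam47e, at distances of 0.19, 0.24 and 0.28 (log2). Dbp was at 10.85 with clodronate and 10.69 with PBS on the high-fat diet, and at 9.63 with clodronate and 9.27 with PBS on the low-fat diet. For Pparg they were C730036E19Rik, Clcn2 and Ttc30b, at distances of 0.12, 0.13 and 0.14. With 4 arrays there are few ways to differ, and many genes can lie this close.

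**Figure D5:**
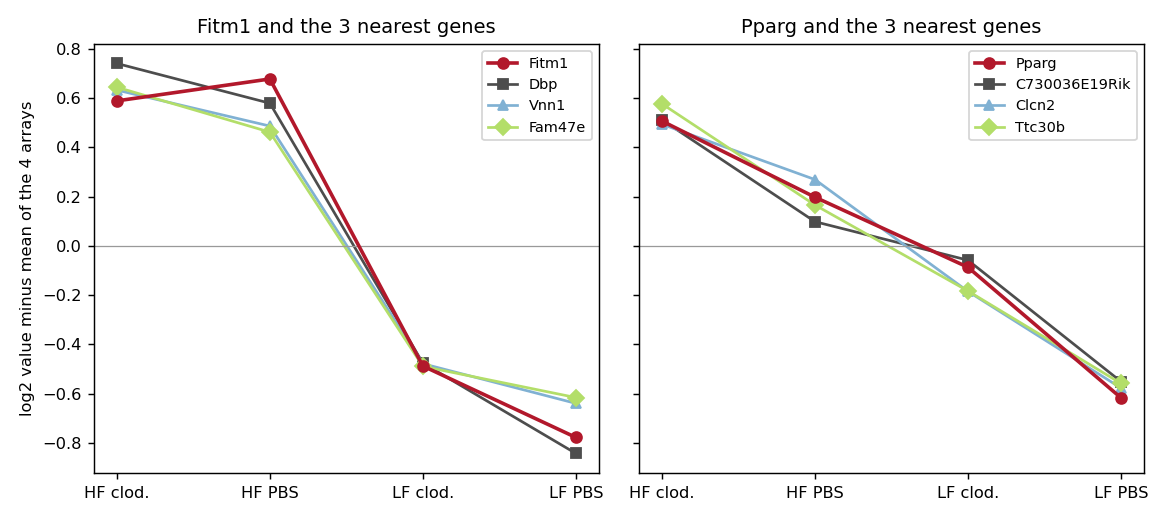
Log2 values minus each gene's mean over the 4 arrays, for Fitm1 (left) and Pparg (right) with the 3 genes nearest to each; HF is the high-fat and LF the low-fat diet, clod. is clodronate, and each point is 1 pooled array. Fitm1 and its neighbours fall into a high-fat and a low-fat level, while Pparg and its neighbours run down over 4 levels from the high-fat clodronate to the low-fat PBS array.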

How the data were processed

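Liver RNA of 36 mice was pooled into 4 samples, and each pool was hybridised to 1 Affymetrix array, per the labels' protocols. The authors deposited a table of log2 values for 45101 probe sets. The submitters' processing notes name GCRMA 2.24.1, which corrects background by probe sequence, brings arrays to a common distribution and summarises probes, so small differences can depend on that scaling. No scanner files were used here. The platform annotation gave 1 symbol to 34958 probe sets. Before a difference between 2 arrays was taken, values below 4 were raised to 4, which makes such differences bounds. Effects of diet and clodronate came from limma 3.58.1 (R 4.3.3): an additive model, eBayes with 1 prior variance, and Benjamini-Hochberg adjustment at 0.05 over 16298 probe sets. The model has 1 residual degree of freedom, which also holds any dependence of either effect on the other. P-values rest on that residual and on the prior variance taken over all probe sets, and do not reflect the spread between arrays of a group or between mice. The remaining work used Python 3.11.15 with pandas 2.3.3 and numpy 2.4.6. Promoter windows came from RefSeq, build GRCm38.p6, matched by symbol. Alternatives were other floors, folds, scalings and filters, 1 probe set per gene and a mean-dependent prior. An earlier simulation found that this prior called too many unchanged genes, so calls made only with it are weaker for every gene named here. The genes and lists were chosen with earlier results of these data known. From each fat storage list up to 3 genes with the largest difference in any pair were named, with every gene called, and for Fitm1 and Pparg, which ranged over at least 1 log2 unit, the 3 nearest genes.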

Additional observations from a re-analysis of the deposited data

How the results depend on the processing

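No paired analysis was possible because each group has a single array. Neither a replicate nor a mouse can be left out for the same reason. The numbers of the 9 measured probe sets past 1.5-fold and 2-fold were the same as in the main analysis under a floor of 5, no floor, centring and quantile normalization. In limma the count of these probe sets that rose with diet was 0 in the main model and 1, Fitm1, with the mean-dependent prior, over all probe sets or over 1 per gene (1 per gene with this prior was chosen after seeing the data), and the other alternatives also gave 0. The adjusted p of Fitm1 for diet ranged from 0.00244 to 0.803 over the alternatives, and that of Pparg from 0.122 to 0.876. Under quantile normalization Pparg was higher by 0.75 on the high-fat diet with clodronate. Over all probe sets, limma calls for diet were 24 risen and 29 fallen with the mean-dependent prior, and 75 and 71 with 1 probe set per gene in addition. For clodronate they were 2 risen and 72 fallen, and 10 and 84, against 0 and 11 in the main model. With 1 probe set per gene 39 fell, with centring 6, and with values of 4 or more required on all arrays 0 (limma; 591 at an unadjusted p under 0.05). Probe sets 1.5-fold or more higher and lower, against 2-fold or more, numbered 117 and 480 for clodronate on the high-fat diet, 398 and 225 for clodronate on the low-fat diet, 270 and 931 for diet with clodronate and 378 and 249 for diet with PBS. A floor of 5 left 9 higher and 67 lower, 24 higher, 38 higher and 90 lower, and 23 lower at 2-fold in these comparisons, and quantile normalization 87 lower for diet with clodronate. A lower fold mark can only raise such counts, and a higher floor can only shrink a difference or leave it as it is. Requiring 4 or more on all arrays drops Clec4f, Vsig4, C1qa, C1qc and Cd163, which were below 4 in the clodronate pools. What lay behind the other changes was not tested. Signal close to the floor limits Plin4 and Cidec, for which no difference was measurable.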
